A study of Mus musculus with 6 samples.

Results

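The genes described here are the 4 Cdc2-like kinases Clk1, Clk2, Clk3 and Clk4, together with Ogt, Mgea5 and Mat2a. These 7 genes were chosen by name, out of 21958 protein-coding genes in the deposited table, because their transcripts are known for detained introns, and all 7 passed the filter on low counts that left 12255 genes for testing. RNA was sequenced from synaptoneurosomes, a brain fraction enriched in pinched-off synapses, which were prepared from the hippocampus and adjacent cortex of FVB mice aged 6 to 8 weeks. One group, called total RNA, held 3 libraries from synaptoneurosomes that were not stimulated. The other group, called polyribosomes, held 3 libraries of RNA from the light and heavy polyribosomal fractions of synaptoneurosomes that received a 30 s pulse of 50 µM NMDA with 10 µM glutamate at 37 °C, followed by 120 µM APV, an NMDA receptor antagonist, for 20 min. Per the methods, synaptoneurosomes of several mice were pooled and divided into aliquots, of which one gave the total RNA and another was stimulated. Neither the labels nor the methods state outright that the 3 replicates came from separate pools, so the p-values measure the spread between these libraries, which may be technical. The groups differed in RNA fraction and in stimulation with its incubation at once, so these cannot be told apart.

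A detained intron is one that stays in an otherwise finished, polyadenylated transcript, which then remains in the nucleus until the intron is removed or the RNA is degraded. The Clk kinases, also called LAMMER kinases, phosphorylate serine- and arginine-rich (SR) splicing factors, and in Clk1 and Clk4 the introns on both sides of exon 4 are the known detained ones. Ogt encodes the enzyme that attaches O-linked N-acetylglucosamine (O-GlcNAc) to nuclear and cytoplasmic proteins, and Mgea5, now also named Oga, encodes the enzyme that takes it off. Mat2a encodes the catalytic subunit that makes S-adenosylmethionine (SAM), the methyl donor of the cell. In Ogt and Mat2a, intron removal is known to respond to the level of the product of the enzyme. The counts used here are totals per gene, so they separate neither spliced from intron-containing transcripts nor nuclear from cytoplasmic RNA.

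Splice sites of annotated retained introns are shown because introns left in the transcript are the reason these genes were grouped, and to compare the 4 kinases. In the Gencode vM21 annotation (GRCm38), each of the 4 Clk genes has 13 exons in its main coding transcript, and in each of them intron 3 and intron 4, which flank exon 4, are held whole by at least 1 transcript of the class "retained intron". Intron 3 of Clk1 lies at chr1:58420212-58421082 (871 bp, minus strand) and intron 4 at chr1:58419734-58420120 (387 bp). The same introns of Clk4 lie at chr11:51272023-51273077 (1055 bp, plus strand) and chr11:51273169-51273559 (391 bp). In Clk2 they lie at chr3:89168924-89169617 (694 bp, plus strand) and chr3:89169703-89170048 (346 bp), and in Clk3 at chr9:57758724-57760823 (2100 bp, minus strand) and chr9:57758351-57758626 (276 bp). Exon 4 has 91 nt in Clk1 and Clk4, 85 nt in Clk2 and 97 nt in Clk3, none of them a multiple of 3, and in each gene at least 1 annotated transcript of the nonsense-mediated decay class joins exon 3 directly to exon 5. Each sequence below gives the last 6 bases of the exon and the first 14 of the intron, 5′ to 3′, read from the annotated retained-intron transcript, with the first 2 bases of the intron in capitals.
Clk1, intron 3: cacgggGTatgagtgccttt
Clk4, intron 3: cattcgGTatgagtggtttg
Clk2, intron 3: tcttcaGTgagtgccagccc
Clk3, intron 3: tcctcgGTgagtggtggcca
Clk1, intron 4: caagatGTatagaatatttt
Clk4, intron 4: caagatGTatagaatatttt
Clk2, intron 4: agcgatGTacaagccaaatc
Clk3, intron 4: agcgatGTacagccaccttt

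At intron 4, Clk1 and Clk4 were identical over all 20 bases, whereas Clk2 and Clk3 shared 13 of 20 with each other and 9 to 11 with Clk1 and Clk4. At intron 3, Clk1 and Clk4 shared 14 of 20 bases, as did Clk2 and Clk3, and the other combinations shared 4 to 8. The 3′ splice sites, not printed here, did not divide the kinases in this way. Over 26 bases at intron 4, Clk2 and Clk4 shared 17, Clk1 and Clk4 16, Clk1 and Clk2 15, and Clk2 and Clk3 14. At the 3′ end of intron 3, Clk1 and Clk4 shared 15 of 26, Clk1 and Clk2 14, Clk2 and Clk4 12, and Clk2 and Clk3 10. The introns of Clk1 and Clk4 began with GTAT at both positions, a start found in 7.66% of the 8041 annotated introns of the deposited genes that a retained-intron transcript holds whole. Clk2 and Clk3 had GTGA at intron 3, found in 32.3% of these introns, and GTAC at intron 4, found in 6.03%. Over the aligned coding sequences, Clk1 and Clk4 were 74.6% identical, Clk2 and Clk3 70.8%, and the other combinations 65.3% to 66.9%. These are descriptions of letters in short windows and carry no measurement of splicing.

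For Ogt, all 3 annotated retained-intron transcripts end inside intron 4 (chrX:101652209-101655623, 3415 bp, plus strand), holding 669 to 2378 of its bases from the 5′ side. For Mgea5, 1 retained-intron transcript holds intron 3 whole (chr19:45777018-45778586, 1569 bp, minus strand), and for Mat2a 1 holds intron 2 whole (chr6:72437118-72437370, 253 bp, minus strand). Other retained-intron transcripts run partly into intron 12 of Mgea5 and introns 1 and 3 of Mat2a, so the annotation links no single intron to these 2 genes, and the last intron of Mat2a, known as a detained one, is not shown here. The 5′ splice sites of the 3 introns named first are given in the same layout, as examples of what the annotation holds.
Ogt, intron 4: gccaagGTaggtgtttgcta
Mgea5, intron 3: aagctgGTaatctctgtgtg
Mat2a, intron 2: cttgtgGTaggtacagagca

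The libraries differed in depth, with 5294482 to 7361580 counts on polyribosomes and 1044955 to 3738022 in total RNA, and the shallowest, total RNA replicate 3, limits the precision for weakly expressed genes such as Clk2 with 10 counts there. Markers of neurons were present in all libraries, and 7 of 8 ran higher on polyribosomes in the fit, with a summed level of 9818 to 13014 CPM (counts scaled by library size) on polyribosomes and 8149 to 10506 in total RNA. Most markers of other cells also had positive log2 fold changes, although Cldn11 of the oligodendrocytes was the only marker to pass the group-only test at an adjusted p under 0.01 (0.83, edgeR). With the replicate as a block in the fit, 5 of 8 markers of neurons, 5 of 8 of astrocytes, 4 of 7 of oligodendrocytes, 3 of 7 of microglia and 1 of 6 of endothelial cells were called higher and 0 lower, where 11.8% and 13.2% of all genes were. All 8 astrocyte markers were positive (sums of 41198 to 43628 against 32759 to 37841 CPM), as were all 7 of oligodendrocytes (10964 to 14815 against 7902 to 11060), all 7 of microglia (748 to 889 against 517 to 671) and 5 of 6 of endothelial cells (285 to 496 against 298 to 314). No marker of these lists was at 0 in any library. Their part in the results below was not tested.

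The 7 genes did not behave alike. Clk4, Clk1 and Ogt were lower on polyribosomes, at 32.5%, 39.3% and 50.7% of their level in total RNA, while Clk2, Mat2a and Mgea5 had smaller negative log2 fold changes that did not pass the test and Clk3 had a small positive one. A gene was called when its p from the quasi-likelihood test of edgeR, adjusted by Benjamini and Hochberg over all genes tested, was under 0.01, and by this rule 3 of the 7 genes were called lower and 0 higher. Over all 12255 genes, 2.36% were called lower and 0.71% higher. DESeq2 called the same number, 3 lower and 0 higher, against 3.71% and 2.48% of the 10828 genes to which it gave an adjusted p. At an unadjusted p under 0.05 (edgeR) there were 4 lower and 0 higher, against 17.1% and 15.4% of all genes. The median log2 fold change was -0.41 over the 7 genes and 0.00097 over all genes tested. Together the 7 genes took 0.0255% to 0.0285% of the counts on polyribosomes and 0.0432% to 0.0514% in total RNA.

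**Figure D1:**
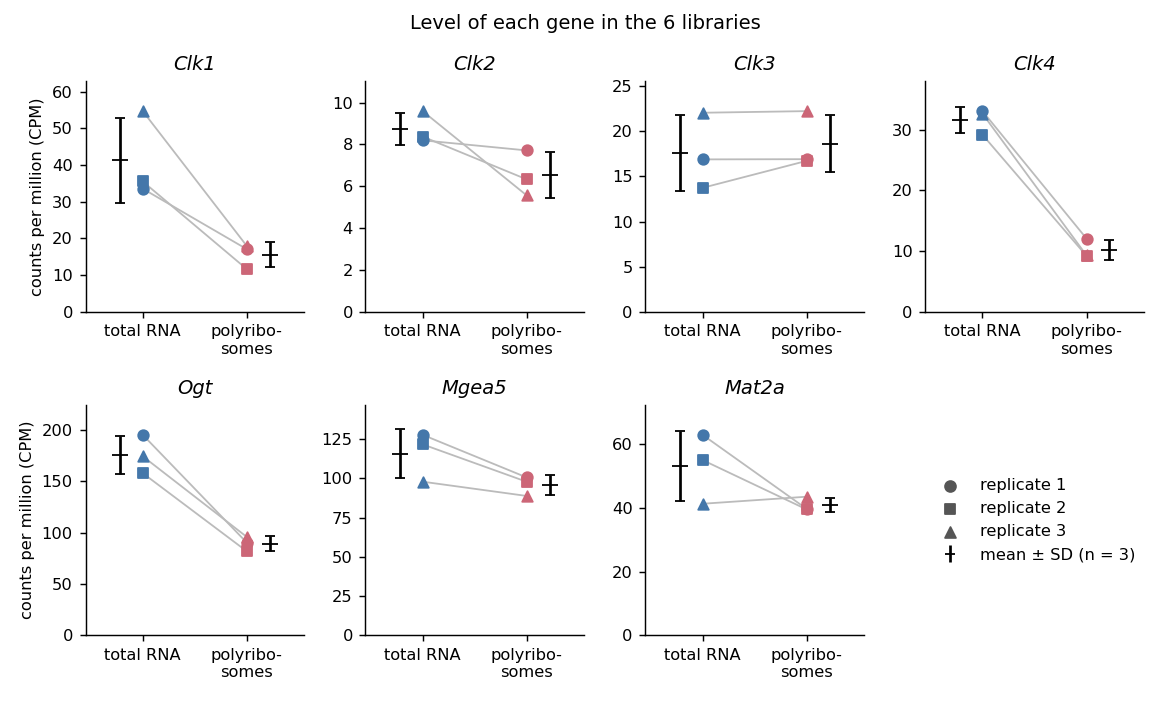
Level of each gene in CPM (y axis, linear from 0) in the 3 total RNA libraries (blue) and the 3 polyribosome libraries (red), with lines joining libraries of the same replicate number and bars for the mean ± SD (n = 3). For Clk1, Clk4 and Ogt every polyribosome library lies well below every total RNA library, with means of 15.5 against 41.2, 10.2 against 31.6 and 89.4 against 176 CPM, whereas the points of Clk3, Mgea5 and Mat2a overlap between the groups.

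Among the kinases, Clk4 showed the largest difference. Its level was 12.04, 9.19 and 9.26 CPM on polyribosomes (replicates 1 to 3) and 33.0, 29.1 and 32.6 CPM in total RNA. The groups lay far apart, and the spread within each was small. This gave a log2 fold change of -1.62 ± 0.19 (standard error) with an adjusted p = 0.000681 (edgeR's quasi-likelihood test), and it stayed called with every library left out in turn (-1.77 to -1.55). In the 3 same-numbered pairs of libraries the difference was -1.42, -1.62 and -1.77. Clk4 is found at chr11:51261730-51281766 of GRCm38 on the plus strand. The annotation has BC049762 overlapping it on the opposite strand and Gm25082, a gene of the class misc_RNA, on the same strand.

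Clk1, at chr1:58410189-58424066 on the minus strand, had 17.0, 11.6 and 17.9 CPM on polyribosomes and 33.5, 35.5 and 54.7 CPM in total RNA. The groups did not overlap, but total RNA replicate 3, on 57 counts, stood above the others. Clk1 differed by -1.35 ± 0.23 (log2, standard error) between the groups, with an adjusted p = 0.00345 (edgeR's quasi-likelihood test). The 3 same-numbered pairs gave -0.96, -1.58 and -1.59. Leaving out 1 library at a time gave -1.50 to -1.16, and Clk1 was no longer called without polyribosomes replicate 2 (-1.18, adjusted p = 0.0178, edgeR) and without total RNA replicate 2 (-1.44, adjusted p = 0.0199, edgeR).

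Clk2 and Clk3 gave another picture. Clk2, at chr3:89164795-89176921, was the weakest of the 7 genes, with 7.71, 6.33 and 5.56 CPM on polyribosomes and 8.19, 8.37 and 9.59 CPM in total RNA. Each polyribosome library was below each total RNA library, but by little. The log2 fold change of -0.36 (standard error 0.25) did not pass the test (adjusted p = 0.338, edgeR's quasi-likelihood test). Clk3, at chr9:57750711-57765860, had 16.9, 16.7 and 22.2 CPM on polyribosomes and 16.9, 13.7 and 22.1 CPM in total RNA. The groups overlapped, and both held their highest value in replicate 3. The estimate of 0.14 ± 0.22 (log2, standard error, adjusted p = 0.689, edgeR's quasi-likelihood test) turned to -0.24 when the fit held the replicate as a block and an offset that removes trends with GC content and transcript length, and to -0.0081 without total RNA replicate 2. Of the windows of 100 nt in its main transcript, 13.2% also occur in a transcript of another gene, on either strand (Edc3, which overlaps Clk3 on the opposite strand, or AC157214.1), so its counts are less certain than those of Clk1, Clk2, Clk4 and Ogt, for which no such window was found.

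**Figure D2:**
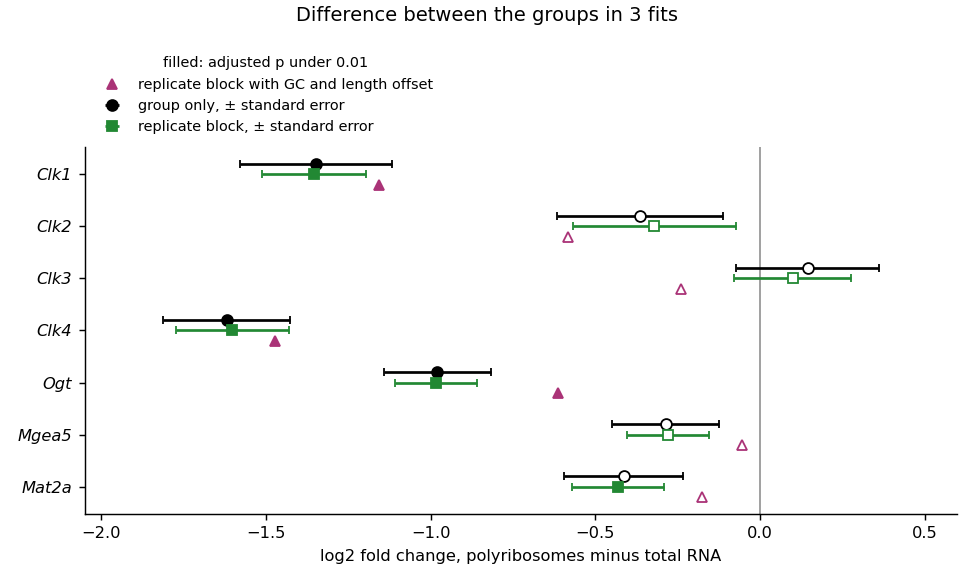
Log2 fold change (x axis, polyribosomes minus total RNA) of the 7 genes in 3 fits of edgeR: group only (circles) and with the replicate as a block (squares), both with standard errors, and with the block plus the GC and length offset (triangles, no error drawn). Filled symbols have an adjusted p under 0.01. Clk1, Clk4 and Ogt lie left of -0.6 in all 3 fits, while Clk3 lies at 0.14, 0.10 and -0.24.

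Whether the kinases differed from each other was examined through the ratio of their counts within a library, which needs no normalization. The ratio of Clk3 to Clk4 was 0.474 to 0.681 in total RNA and 1.40 to 2.38 on polyribosomes, so the gene with more counts was not the same in the 2 groups. The difference of its mean log2 between the groups was 1.73 (SD over the 3 same-numbered pairs 0.25). The ratio of Clk2 to Clk4 differed by 1.20 (SD 0.19), that of Clk1 to Clk3 by -1.49 (SD 0.47) and that of Clk1 to Clk2 by -0.95 (SD 0.22). These 4 of 6 combinations draw on the same 4 genes and are not independent, and other gene pairs were not counted. For each of the 4 combinations the groups did not overlap. The exact two-sided permutation test over libraries, which did not use the pairing, gave p = 0.1 for each (0.15 after adjustment over the 6). This is the smallest p that 3 against 3 allows, so none could reach 0.05. Clk1 and Clk4 differed from each other by 0.24 (SD 0.22, values of 0.05 to 0.48 over the pairs, exact permutation p = 0.4), and Clk2 and Clk3 by -0.53 (SD 0.39, -0.82 to -0.094, exact permutation p = 0.2). In both of these combinations the libraries of the groups overlapped, and the size depended on single libraries. Clk1 to Clk4 differed by 0.069 without polyribosomes replicate 3, 0.082 without total RNA replicate 1, 0.37 without polyribosomes replicate 2 and 0.44 without total RNA replicate 3, and Clk2 to Clk3 by -0.29 without polyribosomes replicate 3.

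As shares of all counts on the 4 Clk genes, Clk1 made up 41.2% ± 4.70 (SD, n = 3) in total RNA and 30.3% ± 3.32 on polyribosomes, and Clk4 32.4% ± 4.44 and 20.1% ± 2.89. Clk3 made up 17.6% ± 1.54 in total RNA and 36.7% ± 4.65 on polyribosomes, and Clk2 8.89% ± 0.80 and 13.0% ± 2.47. Clk1 thus took the largest share in each total RNA library and Clk3 in 2 of the 3 polyribosome libraries. Near ties stood in total RNA replicate 1 (135 counts for Clk1, 133 for Clk4) and polyribosomes replicate 1 (126 for Clk1, 125 for Clk3). These shares rest on 124 to 397 counts per library and are not corrected for gene length.

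**Figure D3:**
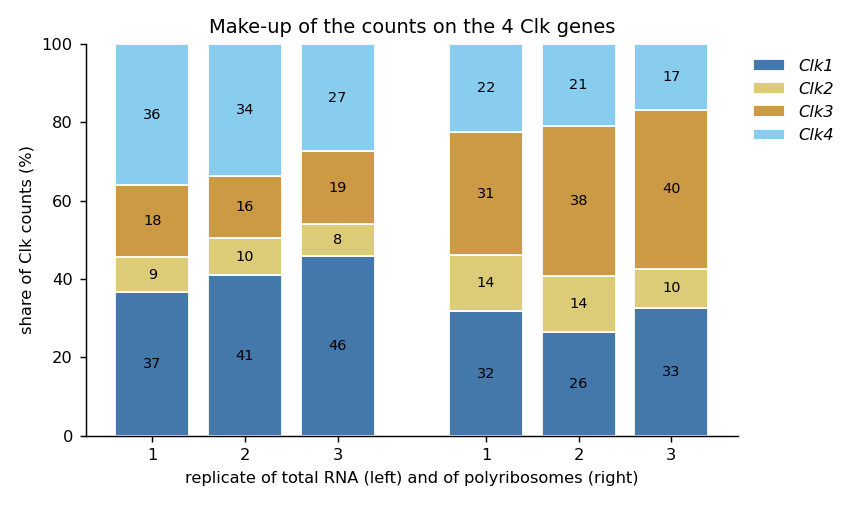
Share of the counts on the 4 Clk genes (y axis, percent, stacked to 100) taken by each gene in each library, with total RNA replicates on the left and polyribosome replicates on the right. Clk3 takes 15.8% to 18.5% of the Clk counts in total RNA and 31.5% to 40.4% on polyribosomes.

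The base composition of the kinase genes moved with this division. The main coding transcript had a GC content of 40.9% in Clk1 and 43.3% in Clk4, against 55.9% in Clk2 and 58.8% in Clk3. With the offset for GC content and transcript length and the replicate block, the log2 fold changes were -1.16 for Clk1, -1.47 for Clk4, -0.58 for Clk2 and -0.24 for Clk3, with adjusted p-values of 4.2e-12, 5.5e-16, 0.0688 and 0.331 (edgeR's quasi-likelihood test). In that fit 3 of the 7 genes were called lower and 0 higher, against 7.24% and 8.71% of all genes. Its p-values lean on a spread shared across genes, since each group has 3 libraries, and they take the offset as known. Their small size is therefore no measure of certainty. Without the block the offset left Clk4 called (-1.48, adjusted p = 0.000489, edgeR) and Clk1 not (-1.14, adjusted p = 0.0127, edgeR).

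The 2 enzymes of the O-GlcNAc cycle, the transferase and the hydrolase, were measured well, with 182 to 787 counts for Ogt and 102 to 743 for Mgea5 per library. Ogt, at chrX:101640060-101684351 on the plus strand, had 90.4, 81.9 and 95.9 CPM on polyribosomes and 195, 158 and 175 CPM in total RNA. The groups did not overlap. Ogt differed by -0.98 ± 0.16 (log2, standard error) with an adjusted p = 0.0032 (edgeR's quasi-likelihood test), and by -1.11, -0.94 and -0.86 in the 3 same-numbered pairs. Leaving out 1 library at a time gave -1.05 to -0.90, and the call was lost in 4 of 6 cases, without polyribosomes replicate 1 (-0.99), polyribosomes replicate 2 (-0.92), total RNA replicate 1 (-0.90) or total RNA replicate 2 (-1.05). Correcting for GC content (42.9% for Ogt) and length moved it more, to -0.61 with the replicate block (adjusted p = 2.8e-06, edgeR) and to -0.59 without it (adjusted p = 0.0441, edgeR).

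Mgea5, at chr19:45750261-45783520 on the minus strand, had 101, 97.8 and 88.7 CPM on polyribosomes and 128, 122 and 97.8 CPM in total RNA. The groups overlapped, since total RNA replicate 3 lay below polyribosomes replicate 1. Its log2 fold change of -0.29 (standard error 0.16) did not pass the test (adjusted p = 0.241, edgeR's quasi-likelihood test), and it was -0.055 with the block and the offset. In the same-numbered pairs the difference was -0.34, -0.31 and -0.14. An antisense gene, Gm15491, overlaps Mgea5 and shares 9.20% of the windows of 100 nt.

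Mat2a, at chr6:72432799-72439558 on the minus strand, had 39.6, 39.5 and 43.4 CPM on polyribosomes and 62.8, 54.9 and 41.2 CPM in total RNA. Total RNA replicate 3, on 43 counts, lay within the polyribosome values, and the other 2 total RNA libraries lay above them. The difference of -0.41 ± 0.18 (log2, standard error) did not pass the test (adjusted p = 0.128, edgeR's quasi-likelihood test). With the replicate block it was -0.43 and passed the threshold (adjusted p = 0.00949, edgeR), which made 4 of the 7 genes called lower and 0 higher, where 13.2% of all genes were called lower and 11.8% higher. With the offset as well it was -0.18 and did not pass. By same-numbered pair, Mat2a differed by -0.66, -0.47 and 0.074, so replicate 3 went the other way. Of its windows of 100 nt, 4.40% also occur in a transcript of another gene, and Particl overlaps it on the opposite strand.

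The CPM values of the groups did not overlap, with polyribosomes lower, for 4 of the 7 genes (Clk1, Clk2, Clk4 and Ogt), against 18.9% of all genes tested, and with polyribosomes higher for 0 of the 7, against 17.4%. Per kilobase of annotated exon, the order of levels in total RNA was Ogt (32.7 ± 3.47 CPM per kb, SD, n = 3), Clk1 (23.0 ± 6.50), Mgea5 (19.2 ± 2.62), Mat2a (15.6 ± 3.22), Clk4 (15.3 ± 1.04), Clk3 (7.03 ± 1.68) and Clk2 (4.04 ± 0.35). From Ogt down to Clk4, the libraries of each gene overlapped those of the next, while Clk4 lay above Clk3 and Clk3 above Clk2 without overlap. On polyribosomes the order was Ogt (16.6 ± 1.31), Mgea5 (15.9 ± 1.02), Mat2a (12.1 ± 0.66), Clk1 (8.64 ± 1.91), Clk3 (7.46 ± 1.25), Clk4 (4.93 ± 0.79) and Clk2 (3.03 ± 0.51). There Ogt overlapped Mgea5 and Clk1 overlapped Clk3, and the other neighbours were separate. Clk1 thus went from the second place to the fourth, and Clk4 from above Clk3 to below it.

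Beyond these 7 genes, 4 lists describe the pathways around them. Of the SR proteins, the substrates of the Clk kinases, 12 of 13 had a negative log2 fold change, with a median of -0.44, but 1 was called lower (2.36% of all genes were) and 0 higher, and 8 were lower and 0 higher at an unadjusted p under 0.05 (17.1% and 15.4% of all genes). With the replicate block 4 were lower and 0 higher (13.2% and 11.8% of all genes). With the GC and length offset as well, Srsf11, Srsf5, Srsf2 and Srsf9 were called lower (-1.01, -0.39, -0.60 and -0.64), where 7.24% of all genes were. Srsf1 and Srsf3 then turned positive (0.21 and 0.11). The 1 called in the group-only fit was Srsf11, a splicing factor of the SR family, with 60.3 ± 7.92 CPM in total RNA and 25.7 ± 1.71 on polyribosomes. The difference of -1.21 ± 0.17 (log2, standard error; adjusted p = 0.00156, edgeR's quasi-likelihood test) lay between those of Ogt and Clk1, and it has 11 annotated retained-intron transcripts, the most of the list. Srsf1, Srsf5 and Srsf3, the most abundant of the others, had log2 fold changes of -0.23, -0.42 and -0.20 in that fit and were not called by it.

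Of 13 kinases related to the Clk family (the Srpk, Dyrk and Hipk families and Prpf4b), 10 passed the filter and 8 of them had a negative log2 fold change, with a median of -0.37. None was called in either direction by edgeR or DESeq2, 5 were lower and 0 higher at an unadjusted p under 0.05 (17.1% and 15.4% of all genes), and 4 were lower and 0 higher with the replicate block (13.2% and 11.8%). With the GC and length offset as well, no gene of this list passed. The 4 called with the block, Srpk1, Srpk2, Hipk3 and Prpf4b, then stood at -0.44, 0.071, -0.26 and 0.0077 (adjusted p = 0.0167, 0.699, 0.0749 and 0.978, edgeR's quasi-likelihood test). Hipk1 and Dyrk2 also turned positive (0.19 and 0.045), and Dyrk1b turned negative (-0.29). In the group-only fit, Hipk2, Hipk1, Srpk2 and Hipk3, the most abundant, had log2 fold changes of 0.31, -0.12, -0.43 and -0.65. Srpk2 belongs to another kinase family that phosphorylates SR proteins. In a list of hexosamine metabolism, 6 of 11 genes had a positive log2 fold change and the median was 0.016. The list holds the pathway that makes the sugar donor that Ogt uses, but also enzymes of breakdown and salvage. Amdhd2, Gnpda1, Gnpda2 and Renbp are among the latter (0.48, 0.64, -0.21 and 0.84). None of the 11 was called in either direction by edgeR or DESeq2 or with the replicate block, and 1 was lower and 0 higher at an unadjusted p under 0.05, where 17.1% and 15.4% of all genes were. Gfpt1, the first enzyme on the way to the donor, had a log2 fold change of -0.10, and Uap1, Nagk and Pgm3 had -0.42, 0.016 and -0.14. The less abundant Gfpt2 and Gnpnat1, also on that way, had 0.22 and -0.81.

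Of 20 genes of methionine and SAM metabolism, 15 passed the filter and 6 were positive, with a median of -0.19. None was called by edgeR or DESeq2, 4 were higher and 2 lower at an unadjusted p under 0.05 (15.4% and 17.1% of all genes), and 2 were higher and 2 lower with the replicate block (11.8% and 13.2%). With the GC and length offset as well, Cbs and Ahcyl1 were called higher (0.77 and 0.47), where 8.71% of all genes were. Shmt2, Amd1 and Sms then lost their call (0.33, -0.28 and -0.33). In the group-only fit, Ahcyl1, Ahcyl2, Cbs and Mthfd1, the most abundant, had log2 fold changes of 0.27, -0.29, 0.70 and 0.50. Mettl16, which encodes the RNA methyltransferase known to act on Mat2a transcripts and was picked out here after its values were seen, stood at 36.5 ± 1.66 CPM in total RNA and 30.5 ± 1.58 on polyribosomes (log2 fold change -0.25, adjusted p = 0.329, edgeR's quasi-likelihood test). Mat1a, the liver form of the SAM synthetase, had 0 counts in all libraries.

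**Figure D4:**
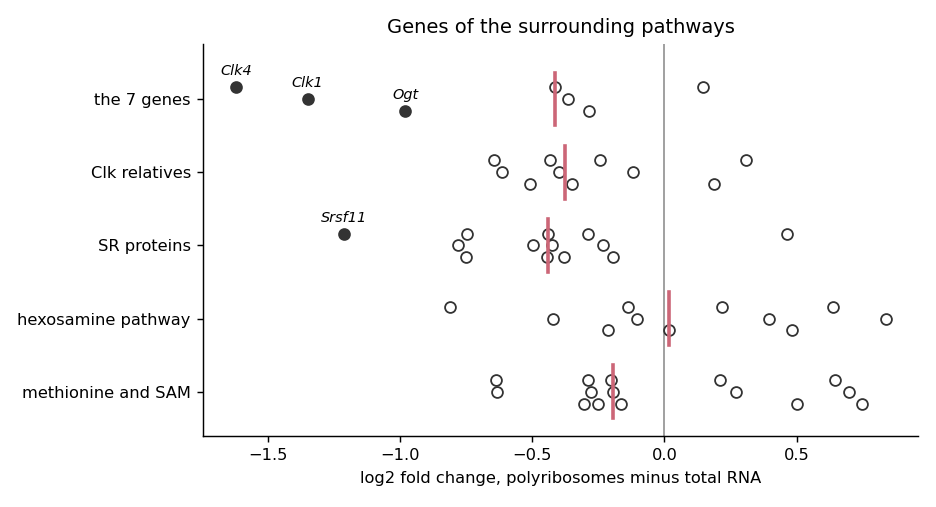
Log2 fold change (x axis, polyribosomes minus total RNA, group-only fit) of each gene tested among the 7 genes and 4 pathway lists, 1 circle per gene and a red line at the median of each row. The filled circles, Clk4, Clk1, Ogt and Srsf11, have an adjusted p under 0.01, and the medians of the rows are -0.41, -0.37, -0.44, 0.016 and -0.19 from top to bottom.

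The number of annotated retained-intron transcripts is a feature of the gene models that was set beside the fold changes. Clk1 and Clk4 have 7 each, Clk2 and Clk3 have 4 each, Ogt and Mat2a have 3 each and Mgea5 has 2. Over 12238 genes tested that have a gene model in Gencode vM21, the median log2 fold change was 0.052 for 5006 genes with 0 such transcripts, -0.015 for 4541 genes with 1 to 2, -0.045 for 1756 genes with 3 to 4 and -0.11 for 935 genes with 5 or more. The share called lower was 1.26%, 2.18%, 3.99% and 5.88% in the same order, and the share called higher 0.82%, 0.75%, 0.40% and 0.53%. With the block and the offset for GC content and length the medians were 0.050, 0.013, -0.044 and -0.13. Average abundance moved with the classes too, from a median log2 CPM of 4.31 in the first to 5.11 in the last, and its part in the order was not tested. Clk1 and Clk4 lay far below the middle of their class, at percentiles 0.983 and 0.314 of the log2 fold changes of all genes, and Ogt was at percentile 3.52.

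**Figure D5:**
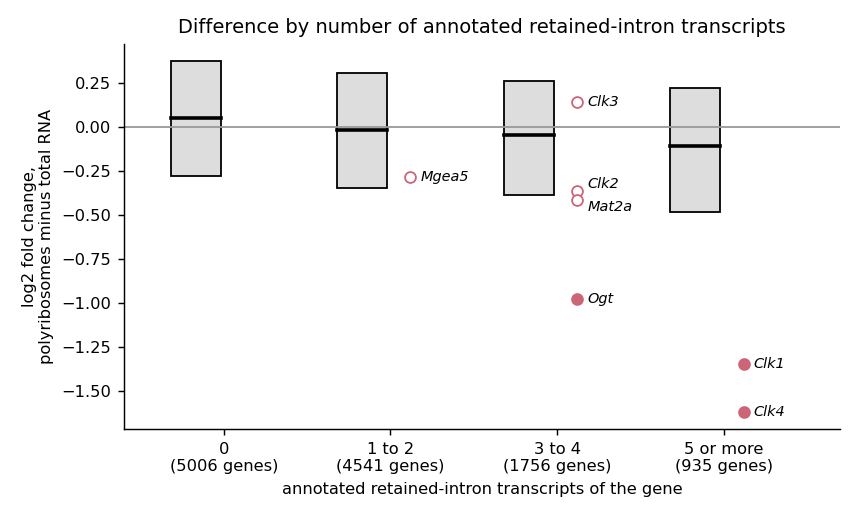
Log2 fold change (y axis, polyribosomes minus total RNA, group-only fit) by the number of annotated retained-intron transcripts of a gene (x axis). Grey boxes span the lower to the upper quartile of all genes tested in a class, with the median as a line, and red circles are the 7 genes, filled at an adjusted p under 0.01. Class medians go from 0.052 to -0.11, and Clk1 and Clk4, with 7 such transcripts each, lie at -1.35 and -1.62.

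The genes with a pattern over the 6 libraries most like the median of the 7, out of 6274 other genes with a mean of at least 100 counts, were Pcmtd2, Peg3, Luc7l, Synj1 and Ppip5k1. The root mean square difference of their centred log2 CPM from that median was 0.062 to 0.068, and their log2 fold changes were -0.70, -0.69, -0.66, -0.54 and -0.61. None of these genes was called (adjusted p = 0.0158 to 0.0378, edgeR's quasi-likelihood test). Among the 7 genes themselves, the root mean square difference was smallest for Clk2 (0.17) and largest for Clk4 (0.51), Clk1 (0.50) and Clk3 (0.44). The median thus describes Ogt, Mgea5, Mat2a and Clk2 better than the other kinases.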

How the data were processed

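RNA was sequenced from 6 libraries, 3 per group. Per the labels and the study's methods, the authors removed ribosomal RNA, aligned read pairs to GRCm38 (mm10) with STAR 2.5.2b, and took counts per gene from the vM6 basic set of Gencode. The deposited counts are whole numbers per protein-coding gene without normalization. The methods describe strand-specific dUTP libraries while the labels name a TruSeq RNA kit, and neither gives whether strand entered the counting, which bears on Clk3, Clk4, Mgea5 and Mat2a, since each has a gene on the opposite strand. The deposited table also holds the authors' DESeq2 comparison (mean normalized signal, log2 fold change and standard error, Wald score, p-value), and these columns were not used.

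The counts were analysed with edgeR 4.0.16 in R 4.3.3 (TMM, filterByExpr, quasi-likelihood test, group as the only term) over the whole table, with a threshold on the adjusted p of 0.01. CPM values use TMM-scaled totals, and log2 CPM a prior count of 2. Alternatives were DESeq2 1.42.0, other scalings, no filter, the replicate block, an offset from a loess fit to GC content and transcript length, thinning to 1044955 counts, and leaving out each library. Clk count ratios used an offset of 0.5 counts. The procedure was tested on simulated data. Same-numbered libraries deviated together from their group means across genes (coefficients of 0.37, 0.26 and 0.38), and their column headers share a prefix, so the numbers were taken as pairs. Replicates of a group differed by more than sampling noise.

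Gene models and transcript sequences came from Gencode vM21, of the same build. By rule, the list genes named are those called, then the most abundant, up to 4 per list. Further list genes are named outside this rule, many for their call or sign in other fits. The 7 genes, the lists and the tests were chosen with earlier results of these data known.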

Additional observations from a re-analysis of the deposited data

How the results depend on the processing

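Over 14 alternatives each, Clk4 kept its direction and its call in all (-1.77 to -1.47), and Clk2 and Mgea5 stayed negative and uncalled. Clk1 and Ogt stayed negative in all 14 and were called in 10 and 8. They lost the call with the GC and length offset without the block (-1.14 and -0.59) and after thinning to the shallowest library (-1.31 and -0.89), and in some fits with 1 library left out (Clk1 from -1.50 to -1.16, Ogt from -1.05 to -0.90). Clk3 turned negative with the offset (-0.22), with the offset and the replicate block (-0.24) and without total RNA replicate 2 (its range with libraries left out was -0.0081 to 0.26). Mat2a was called only with the replicate block (-0.43, adjusted p = 0.00949, edgeR), and the block changed no other call among the 7 genes. The number called lower, 3, was 1 with the offset alone and 1 after thinning, and 1 to 3 with libraries left out, with 1 without polyribosomes replicate 2 or total RNA replicate 2. It was 3 at an adjusted p under 0.05, a threshold at which the share of all genes was not counted. Scaling by total counts alone shifted the median of all genes to -0.11 and left 3 genes called lower, where 366 of 12255 genes were. The median of the 7 genes, -0.41, ran from -0.585 with the offset alone to -0.19 after thinning. The 6 Clk ratios kept their direction with an offset of 5 counts and with each library left out, but 2 moved by more than 1.5 times with a library left out, Clk1 to Clk4 (0.069 to 0.44) and Clk2 to Clk3 (-0.29 without polyribosomes replicate 3). The causes of these changes were not tested.

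Over all genes, 87 were higher and 289 lower. The higher and lower counts were 476 and 566 without a filter, 1441 and 1622 with the replicate block, 1068 and 887 with the block and the offset, 30 and 90 with the offset alone, and 18 and 73 after thinning. DESeq2 gave 268 and 402, and total counts alone 42 and 366. With libraries left out they were 0 to 61 and 22 to 208. Depth limits Clk2 most, with 10 to 57 counts per library.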
